A study of Mus musculus with 158 samples.

Results

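The genes described here are Atp1b1, Atp1b2 and Atp1b3, which encode the beta subunits of the sodium pump. They were taken by symbol from a deposited table of RNA counts, and all 3 were found among its 21956 gene rows. The pump (Na+/K+-ATPase) moves sodium out of the cell and potassium in, using ATP, and it maintains the ion gradients on which action potentials and transmitter uptake depend. Each pump pairs a catalytic alpha subunit with a beta subunit, a glycoprotein that carries the complex to the cell surface and tunes its affinity for potassium. In brain, the product of Atp1b1 is known as the main beta subunit of neurons. That of Atp1b2 was first described on glia as an adhesion molecule (AMOG), and that of Atp1b3 is found in many tissues.

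The RNA came from single mouse brain cells, each taken by patch pipette and given no treatment, and was amplified in 3 rounds before sequencing. The 149 cells formed 6 groups. Primary cultures gave 86 cortical astrocytes, 13 cortical neurons and 8 libraries of hippocampal neurons. Of these 8, M1S and M1D share a title prefix, as do M9S and M9D, and the labels do not say whether each pair is 1 cell. They were counted as 8 cells, and the 6 libraries without D serve as a check. Acute slices gave 22 neurons of cortex, 15 of CA1 and 5 of CA3, the latter being fields of the hippocampus. Most astrocytes, 70 of them, were collected at 12 days of culture, with 3 at 7 days, 5 at 14 and 8 at 15. Of the cultured cortical neurons 4 were collected at 13 days and 3 each at 6, 10 and 15, and all hippocampal neurons at 15 days. The strain was C57/BL6/N, except for the hippocampal cultures and the 7-day astrocytes, which were labelled C57/BL6. No label names a genotype, an animal's age or sex, or the animal, slice or culture a cell came from. Each group therefore counts as 1 sample, its cells are not replicates, and no test between groups was made.

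Levels are given in counts per 1000000 (CPM), either in each cell or from the counts summed over a group. A gene was called detected in a cell from 5 counts upwards once the cell had been thinned at random to a total of 1000000. Cell totals ranged from 535369 to 38680739 counts, and the shallowest cell, from CA1, was left out of detection. The labels were checked against 20 astrocyte and 20 neuron markers: more astrocyte than neuron markers were detected in 83 of 86 astrocytes, but also in 4 of 13 cultured cortical neurons and 3 of 22 cortical slice neurons, and in none of the 27 other neurons. Snap25, a synaptic gene of neurons, was detected in 0 of 86 astrocytes (95% Clopper-Pearson interval 0% to 4.20%), and Slc1a3, a glutamate transporter of astrocytes, in 80 of them. All 8 hippocampal cultured cells had Gad1, the enzyme that makes GABA, at a summed 8856 CPM. The median number of genes detected per cell was 4928 in astrocytes, 4449 and 7498 in cortical and hippocampal cultured neurons, and 1813, 1909 and 2180 in cortical, CA1 and CA3 slice neurons. Detection in slice cells is to be read beside these lower numbers.

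Atp1b1 was detected in most cells of every group. The cells with the gene were 80 of 86 astrocytes (93.0%, 95% Clopper-Pearson interval 85.4% to 97.4%), 11 of 13 cultured cortical neurons, 8 of 8 hippocampal neurons (6 of 6 without the D libraries), 17 of 22 cortical slice neurons, 13 of 14 CA1 neurons and 4 of 5 CA3 neurons. Its summed level was 4805 CPM in cortical slice neurons, 4576 in hippocampal cultures, 1849 in CA1, 1494 in CA3, 1017 in cultured cortical neurons and 471.8 in astrocytes. Counting intervals of these sums do not cover amplification, as reads were not tied to molecules by identifiers, and they are narrow: 470.6 to 473.0 CPM in astrocytes and 1479 to 1508 CPM in CA3. The spread between cells was far wider, and the groups overlapped.

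The cells of each group show that spread for Atp1b1. The lowest, median and highest astrocyte had 0.0883, 248.4 and 2703 CPM. The cultured cortical neurons ranged from 0.614 to 3458 CPM around a median of 314.9, close to that of the astrocytes. The 8 hippocampal neurons were the most uniform, from 1829 to 8576 CPM with a median of 3998, and each of them stood above the median of every other group. Among slice cells, the cortical neurons ranged from 0 to 25209 CPM (median 1173) and the CA1 neurons from 0 to 5493 CPM (median 776.0). The 5 CA3 neurons had 0.198, 525.3, 1350, 2825 and 4075 CPM. In every slice group at least 1 cell was at or near 0 while the highest reached at least 4075 CPM. A single cell held 51.1% of all Atp1b1 counts of the cortical slice group, and without it the group's level was 2601 CPM.

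**Figure D1:**
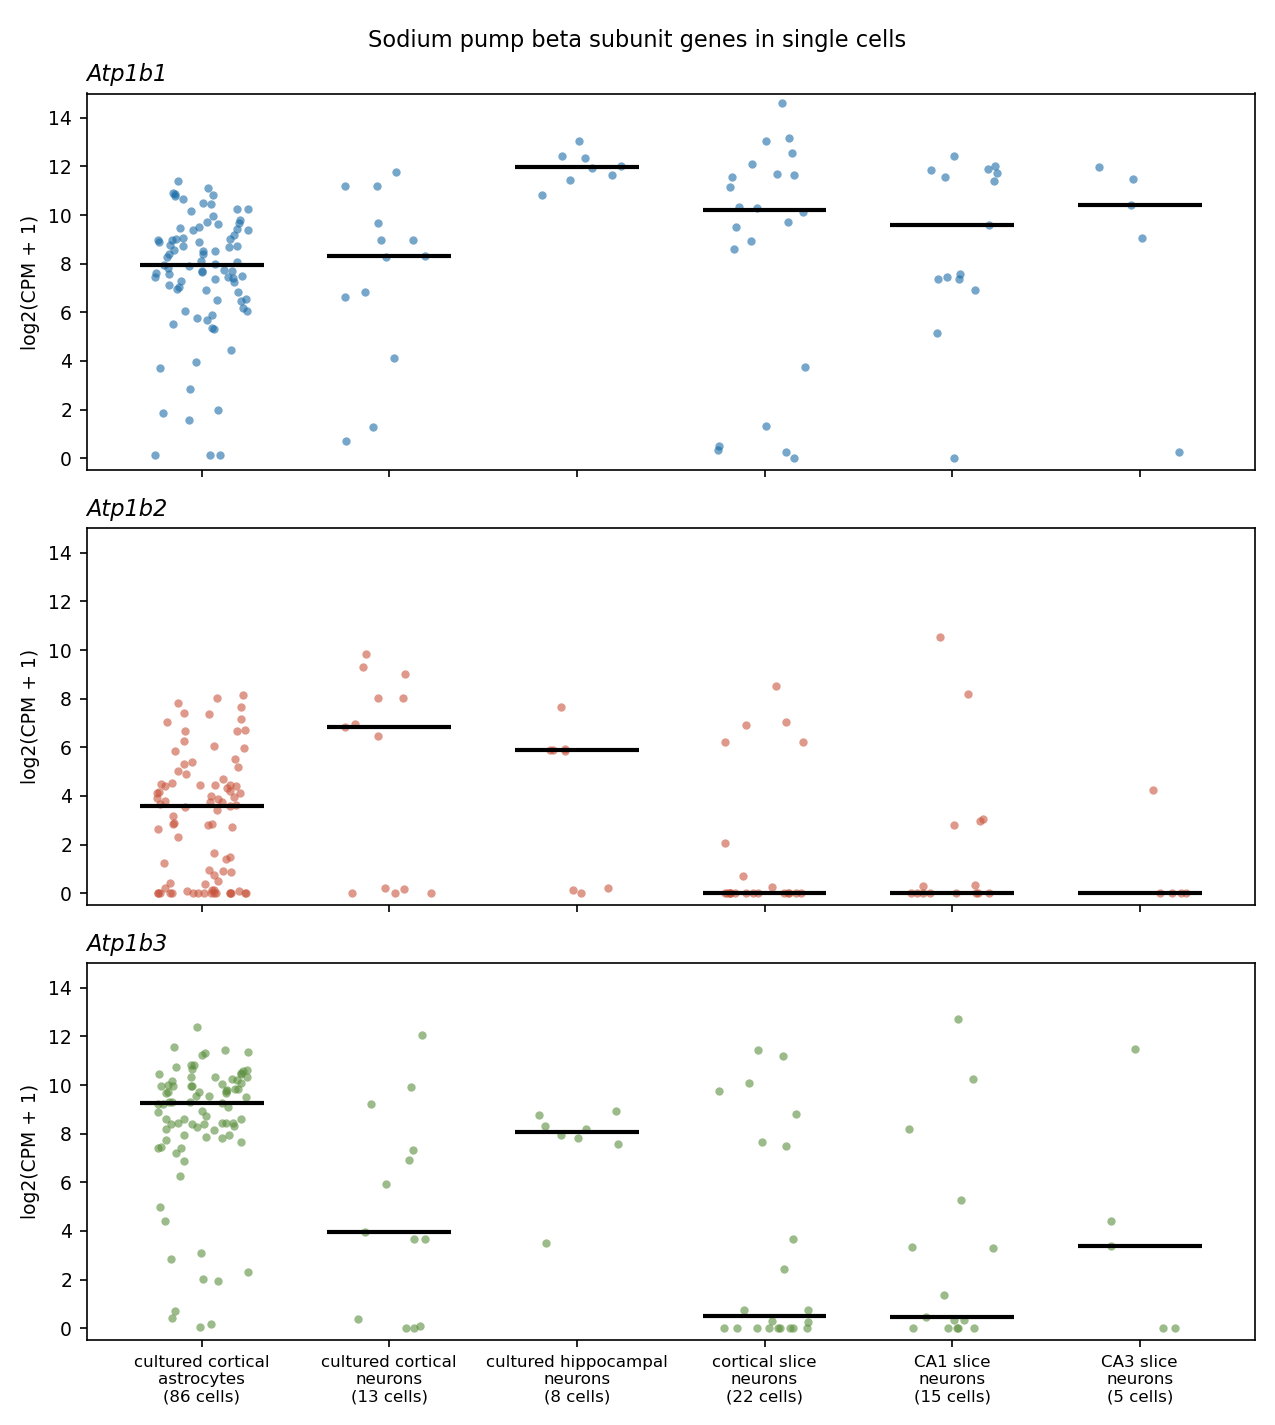
Level of the 3 beta subunit genes in each cell, as log2(CPM + 1), by group. Each point is 1 cell, horizontal jitter has no meaning, and the black line is the median of the group's cells. Atp1b1 is high in most cells of all groups, Atp1b2 sits at 0 in most slice neurons, and Atp1b3 forms a dense high band in astrocytes but ranges from 0 to 6691 CPM in slice neurons.

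Atp1b2, the gene of the adhesion molecule on glia, was the lowest of the 3 in every group, in summed counts per kilobase of exon. Its level was 258.1 CPM in cultured cortical neurons, 102.3 in CA1, 61.1 in hippocampal cultures, 43.2 in cortical slice neurons, 40.2 in astrocytes and 3.21 in CA3. Astrocytes were thus not the group with the highest level. The order of astrocytes and cortical slice neurons rested on single cells. Without the highest cell of each group the levels were 223.5 CPM in cultured cortical neurons, 57.7 in CA1, 43.5 in hippocampal cultures, 35.2 in astrocytes and 23.8 in cortical slice neurons, where that cell held 47.99% of the counts. The gene was detected in 53 of 86 astrocytes (61.6%, interval 50.5% to 71.9%), 8 of 13 cultured cortical neurons (61.5%, interval 31.6% to 86.1%), 5 of 8 hippocampal neurons (5 of 6 without the D libraries), 6 of 22 cortical slice neurons, 5 of 14 CA1 neurons and 1 of 5 CA3 neurons. The shares in the 3 cultured groups lay within each other's counting intervals.

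The Atp1b2 values split the neurons into cells with and without the gene. Astrocytes ranged from 0 to 286.7 CPM with a median of 11.2, and 16 of the 86 had no count. Cultured cortical neurons ranged from 0 to 903.0 CPM with a median of 114.7. The hippocampal neurons had 0, 0.103, 0.161, 57.2, 57.98, 59.1, 60.9 and 198.4 CPM. Of these 8 cells, 3 had at most 1 count and 4 lay between 57.2 and 60.9 CPM. In slices the median was 0 in all 3 groups, with highest cells of 368.4 CPM in cortex, 1502 in CA1 and 17.9 in CA3. The other 4 CA3 neurons had no Atp1b2 count. In CA1 the cell at 1502 CPM and another at 288.9 were followed by 7.27, 6.79 and 6.06 CPM, and the rest had less than 1.

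Atp1b3 was detected in nearly all astrocytes and hippocampal cultured neurons, and in fewer of the other neurons. The cells with the gene were 81 of 86 astrocytes (94.2%, interval 87.0% to 98.1%), 9 of 13 cultured cortical neurons, 8 of 8 hippocampal neurons, 8 of 22 cortical slice neurons (36.4%, interval 17.2% to 59.3%), 6 of 14 CA1 neurons and 3 of 5 CA3 neurons. Its summed level, 783.9 CPM in astrocytes, was matched by CA1 (786.8) and CA3 (782.7) and was 403.0 in cortical slice neurons, 377.7 in cultured cortical neurons and 316.5 in hippocampal cultures. The medians of the cells did not follow these sums. The astrocyte median was 604.4 CPM (range 0.0481 to 5315) and the hippocampal median 268.2 (10.3 to 493.8). The cultured cortical neurons had a median of 14.3 CPM, the cortical slice neurons 0.446 and the CA1 neurons 0.377.

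Single cells carried the Atp1b3 sums of 3 neuron groups. The 5 CA3 neurons had 0, 0, 9.36, 20.3 and 2833 CPM, and the last held 99.5% of the group's counts. Without it the CA3 level was 5.32 CPM. In CA1 the highest cell, at 6691 CPM, held 71.7% of the counts, and the level without it was 243.5 CPM. In cultured cortical neurons the highest cell, at 4213 CPM, held 70.2%, and the level without it was 119.99 CPM. Among astrocytes the highest cell held 5.27%. The equal sums of astrocytes, CA1 and CA3 therefore stood for a level shared by most astrocytes and for 1 dominant cell in each hippocampal field.

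When the 6 groups were ranked by summed level, 14 of the 15 pairs of neighbours (5 for each gene) differed by less than the standard deviation between cells on the log2(CPM + 1) scale. The exception was Atp1b2 in astrocytes over CA3 neurons, a difference of 3.29 against a standard deviation of 2.52. Individual cells of the neighbouring groups overlapped in all 15 pairs. In 9 cells sequenced from 2 libraries, the median absolute difference between the libraries was 0.06 on that scale for Atp1b1, with at least 5 CPM in both libraries of 8 pairs. For the other genes most pairs hold little to compare: 5 of 9 were below 5 CPM in both libraries for Atp1b2 and 7 of 9 for Atp1b3. Of the 4 remaining pairs for Atp1b2, 3 differed by at most 0.15. The other, recognised as a pair from its counts, had 190.3 and 105.2 CPM (0.85), and its titles differ in carrying 4min and 8min. The CA1 neuron with the highest Atp1b3 had 6597 and 6764 CPM in its 2 libraries.

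To compare the genes with each other, summed CPM were divided by the length of each gene's merged exons in the GENCODE vM21 annotation of GRCm38. Atp1b1 (ENSMUSG00000026576.12) lies at chr1:164437109-164458355 on the minus strand with 3081 exonic bases. Atp1b2 (ENSMUSG00000041329.13) lies at chr11:69599736-69605942, minus strand, with 4085 exonic bases, and Atp1b3 (ENSMUSG00000032412.8) at chr9:96332655-96364442, minus strand, with 2389. Per kilobase, Atp1b3 made up 66.8% of the beta level of astrocytes, Atp1b1 31.2% and Atp1b2 2.00%. In every neuron group Atp1b1 was the largest part: 59.9% in cultured cortical neurons, 91.0% in hippocampal cultures, 89.7% in cortical slice neurons, 62.9% in CA1 and 59.6% in CA3. Atp1b3 followed in each, with 28.7%, 8.12%, 9.70%, 34.5% and 40.3%. Atp1b2 reached 11.5% in cultured cortical neurons, 2.62% in CA1 and less than 1% in the other 3 neuron groups. Reads can favour 3' ends here, so division by exon length is uncertain. By counts alone, Atp1b3 made up 60.5% and Atp1b1 36.4% in astrocytes, and Atp1b2 15.6% in cultured cortical neurons. The leading gene of each group was the same.

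Within single cells the leading gene was mostly the same as in the sums. Among cells with any beta gene detected, Atp1b3 was the highest per kilobase in 62 of 86 astrocytes, Atp1b1 in 22 and Atp1b2 in 2. By counts alone these were 55, 29 and 2. Per kilobase, Atp1b1 was the highest in 7 of 11 cultured cortical neurons, 8 of 8 hippocampal neurons, 14 of 18 cortical slice neurons, 10 of 13 CA1 neurons and 3 of 4 CA3 neurons. The median share of Atp1b1 within a cell was 98.4% in CA1 and 98.8% in CA3, well above the shares from summed counts, in which 1 cell of each field held most of the Atp1b3. In the cultured groups the median share of the leading gene was close to the summed one, for example 59.8% against 59.9% for Atp1b1 in cortical neurons. The median share of Atp1b3 within a cell was 66.4% in astrocytes, 9.16% in hippocampal cultures and at most 0.758% in the 3 slice groups. In cultured cortical neurons it was 7.01%, against 28.7% from summed counts.

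**Figure D2:**
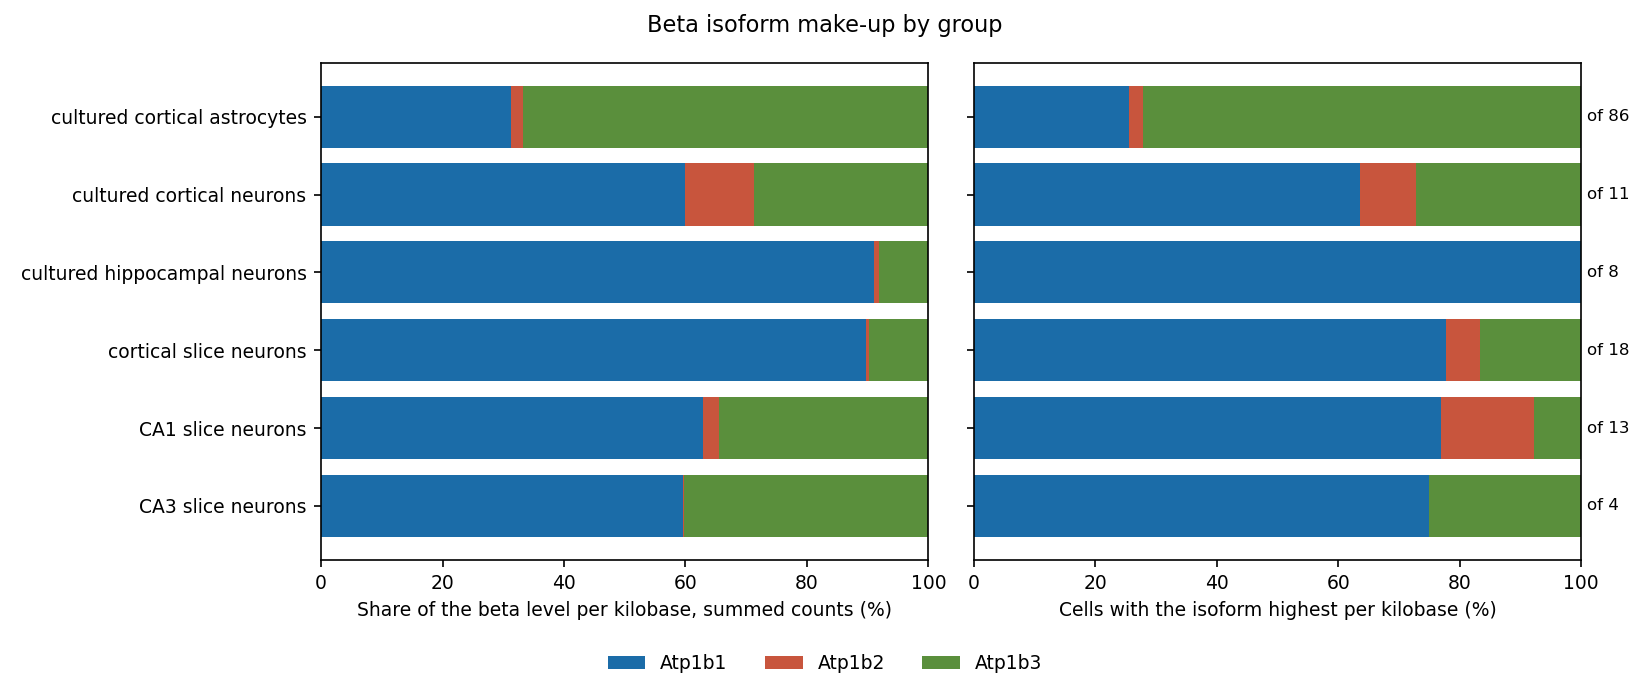
Make-up of the beta subunit genes by group. The left bars give the share of each gene in the beta level per kilobase from summed counts (%), and the right bars the percentage of cells in which that gene was the highest per kilobase, among cells with any of the 3 detected (their number stands at the right). Atp1b3 leads in astrocytes, in 62 of 86 cells, and Atp1b1 in every neuron group, including 8 of 8 hippocampal neurons.

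Combinations also differed by source. All 3 genes were detected together in 50 of 86 astrocytes, 7 of 13 cultured cortical neurons and 5 of 8 hippocampal neurons, but in 2 of 22 cortical slice neurons, 1 of 14 CA1 neurons and 1 of 5 CA3 neurons. Atp1b1 alone was found in 6 cortical slice neurons and 3 CA1 neurons, against 3 of 86 astrocytes. None of the 3 was detected in 2 cultured cortical neurons, 4 cortical slice neurons, 1 CA1 neuron and 1 CA3 neuron. No astrocyte or hippocampal neuron lacked all 3. How much of this difference between slice and cultured cells goes with the fewer genes detected in slice cells was not tested.

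Astrocytes and cultured cortical neurons differed at least 2-fold in summed CPM for all 3 genes, beside 49.7% of the 17473 genes measured in that comparison, so a difference of this size was common. The ratios are given as log2 of CPM plus a pseudocount of 1, which understates the change of low genes. Atp1b1 was lower in astrocytes, 471.8 against 1017 CPM (log2 ratio -1.11), and Atp1b2 was lower as well, 40.2 against 258.1 CPM (-2.65). Atp1b3 was higher in astrocytes, 783.9 against 377.7 CPM (1.05). Of the 19 astrocyte markers measured, 6 were at least 2-fold higher in astrocytes and 3 lower, beside 29.8% and 19.9% of all genes. Their median ratio was 0.37, against 0.08 over all genes. Without the 4 neurons richer in astrocyte than neuron markers, the Atp1b2 ratio was -2.39. The Atp1b1 ratio no longer passed 2-fold with the mean of the cells' CPM (-0.79), with their median (-0.34) or without the cell highest in the gene in each group (-0.61). That of Atp1b3 no longer passed with the mean (0.76), with DESeq2 factors (0.96), without the deepest cell of each group (0.81) or without the 4 neurons richer in astrocyte than neuron markers (0.96). It was 2.66 without the cell highest in the gene. Within basecalling version v2.17, which for these neurons is also the ages of 10 and 13 days, it was 5.02, with 23.1 CPM in 7 neurons.

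Against cultured hippocampal neurons, Atp1b1 in astrocytes was 9.70-fold lower (log2 ratio -3.28) and Atp1b3 was 2.48-fold higher (1.31). These 2 of the 3 genes passed 2-fold, beside 50.2% of 17664 genes. Atp1b2 differed by -0.59, with 40.2 CPM in astrocytes and 61.1 in the neurons. Astrocytes of 15 days alone, the age of the hippocampal cells, gave -3.56 for Atp1b1, -2.16 for Atp1b2 and 0.93 for Atp1b3, so that the call on Atp1b3 was lost and Atp1b2 passed 2-fold. Only the 3 astrocytes of 7 days carry the strain label of the hippocampal cultures, and age then differs. They had 347.1 CPM of Atp1b1, 11.3 of Atp1b2 and 143.2 of Atp1b3, which gave -3.72, -2.33 and -1.14. Atp1b1 thus kept its difference under this label, while the summed Atp1b3 turned to lower in astrocytes. That turn depended on the weight of cells. The mean of the 3 astrocytes' Atp1b3 was 500.2 CPM against 275.2 in hippocampal cells, and the medians were 117.8 and 268.2 CPM.

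Cortical neurons from slices had 4.72-fold more Atp1b1 than those from culture (log2 ratio 2.24) and 5.97-fold less Atp1b2 (-2.55). Beside these 2 of 3 genes, 61.7% of 13741 genes passed 2-fold. The Atp1b1 difference was present within both basecalling versions, at 2.49 in v1.8.4 and 2.08 in v2.17, and so was that of Atp1b2, at -1.94 and -2.81. The versions are not independent, as the slice cells F1 and P1 had a library in each. F1 held 51.1% of the slice group's Atp1b1 counts. The 5 slice cells with titles in F had a summed 11927 CPM of Atp1b1. The 16 with titles in P had 1791 CPM, beside 1017 CPM in the cultured cells. Atp1b3 differed by 0.09 in the pooled cells, 403.0 against 377.7 CPM. Within versions its direction turned: slice neurons had 198.2 CPM against 888.0 in v1.8.4 (-2.16), and 513.2 against 23.1 in v2.17 (4.41). The cultured cells of v1.8.4 were those of 6 and 15 days, so age and version cannot be told apart in them.

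The cultured hippocampal neurons had 4.50-fold more Atp1b1 than cultured cortical neurons and 4.23-fold less Atp1b2 (log2 ratio -2.06), and 55.6% of 13485 genes passed 2-fold. With the medians of the cells the Atp1b2 ratio was -0.98, short of 2-fold. Astrocyte markers moved with Atp1b2 here: 16 of the 18 measured were at least 2-fold lower in the hippocampal cultures (median -3.72), beside 25.3% of all genes. Without the 4 cortical neurons richer in astrocyte than neuron markers the Atp1b2 ratio was -1.79. Atp1b3 differed by -0.25 when pooled, by 3.72 within v2.17 and by 0.42 at 15 days of culture. The detection of Atp1b3, in 8 of 8 against 9 of 13 cells, and its medians of 268.2 and 14.3 CPM stood opposite to the pooled ratio, which rested on the cortical neuron at 4213 CPM. Without the cell highest in the gene in each group the ratio was 1.11.

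CA1 neurons had 2.60-fold less Atp1b1 than cortical slice neurons (log2 ratio -1.38) and 2.37-fold more Atp1b2 (1.22), beside 62.4% of 12666 genes past 2-fold, and the Atp1b3 ratio was 0.96. Within basecalling versions the Atp1b1 ratio was -1.31 in v1.8.4 and -1.39 in v2.17. These ratios are not independent, as the cells F1, P1 and CA1-4 had a library in each version. F1, the highest cortical slice cell, had 24710 and 25442 CPM in its libraries. The 5 cortical cells with titles in F had a summed 11927 CPM of Atp1b1. The 16 with titles in P had 1791 CPM, close to the 1849 CPM of CA1. The Atp1b1 ratio of all cells did not pass 2-fold with the mean (-0.80) or median (-0.60) of the cells. Nor did it without the cell highest in the gene in each group (-0.86), or with TMM (-0.94) or DESeq2 factors (-0.71). These scalings shift all genes of this comparison alike, by 0.44 (TMM) and 0.67 (DESeq2), and raised the Atp1b3 ratio to 1.40 with TMM. Without the deepest cell of each group, the Atp1b2 ratio was 0.29. Within v2.17 the ratios of Atp1b2 and Atp1b3 were 0.71 and 0.02, against 2.12 and 2.77 within v1.8.4. The deepest CA1 cell was the one with 288.9 CPM of Atp1b2.

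Between CA3 and CA1 only Atp1b2 passed 2-fold, beside 71% of 9378 genes, with 3.21 against 102.3 CPM (log2 ratio -4.62). Both sides were set by few cells: the CA3 value came from 88 counts in 1 cell, and 52.9% of the CA1 counts came from the deepest CA1 cell. Without the cell highest in CPM in each field, which in CA1 was another cell, at 1502 CPM, CA3 had 0 CPM and CA1 57.7. Most of that CA1 remainder came from the deepest cell. Atp1b1 differed by -0.31 and Atp1b3 by -0.01. With the CA3 cell at 2833 CPM left out, the Atp1b3 ratio was -6.96.

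Atp1b1, named for neurons, was frequent in astrocytes without Snap25. It was detected in 80 of 86 astrocytes while Snap25 was detected in none, with 45 Snap25 counts in the whole group (0.0353 CPM) against 601684 of Atp1b1. The 4 astrocytes highest in Atp1b1, at 2703, 2203, 1939 and 1847 CPM, had no Snap25 count. Other neuron markers were present: a median of 20% of the 20 (0% to 35%) was detected per astrocyte, at a median summed 562.4 CPM. Across astrocytes, Atp1b1 went with the percentage of astrocyte markers detected (Spearman rho 0.52, 86 cells), with that of neuron markers (0.42), with that of microglia markers (0.35) and with the number of genes detected (0.53). These correlations share the depth and quality of each library.

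Atp1b2 in neurons took different forms by group. In cultured cortical neurons its level followed the astrocyte markers of the same cell (rho 0.78, 13 cells), and it followed the number of genes detected nearly as closely (0.71). The 8 cells with the gene had 20% to 85% of the astrocyte markers detected and the 5 without had 5% to 10%. The highest, at 903.0 CPM, had 892.3 CPM of Slc1a3 and 972.9 of Aqp4, the water channel of astrocyte endfeet. A neuron at 260.8 CPM had 0.0583 CPM of Slc1a3, no Aqp4 count, 20% of astrocyte markers and 95% of neuron markers. In astrocytes themselves rho with the astrocyte markers was 0.69 (86 cells).

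In the hippocampal cultures Slc1a3 and Aqp4 were near 0 in the cells with Atp1b2, while other astrocyte markers were not. Every cell of the group had 15% to 45% of the 20 astrocyte markers detected, at a summed 339.2 to 1084 CPM. All 5 cells with Atp1b2 had at most 0.1 CPM of Slc1a3 and of Aqp4, 95% to 100% of neuron markers, and 652 to 1977 counts of Atp1b2. Slc1a3 was detected in 0 of the 8 cells. The 2 D libraries were among the 3 with at most 1 count of Atp1b2. M9D had 5.37 CPM of Slc1a3 and 4.94 of Aqp4, and M1D had 0 and 3.54. Their partners by title prefix, M9S and M1S, had 59.1 and 60.9 CPM of Atp1b2, and the labels do not explain the letters.

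In slices the CA1 neuron at 1502 CPM of Atp1b2, from 3615 counts, had 0% of the astrocyte markers and 35% of the neuron markers detected. It had 576 genes detected, below the CA1 median of 1909, and 4.15 CPM of Snap25. The CA1 neuron at 288.9 CPM had 10% of astrocyte and 45% of neuron markers, and all of the 12 microglia markers were detected in it (100%), at a summed 20292 CPM. Of the 5 cortical slice neurons with more than 70 CPM of Atp1b2, the 2 highest, at 368.4 and 131.1 CPM, had 75% and 60% of astrocyte markers. The other 3, at 118.5, 73.8 and 73.6 CPM, had 15%, 25% and 35%. Across CA1 neurons rho with the astrocyte markers was -0.42 (14 cells), and across cortical slice neurons 0.40 (22 cells). The part of other cell types' RNA in these values was not tested.

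**Figure D3:**
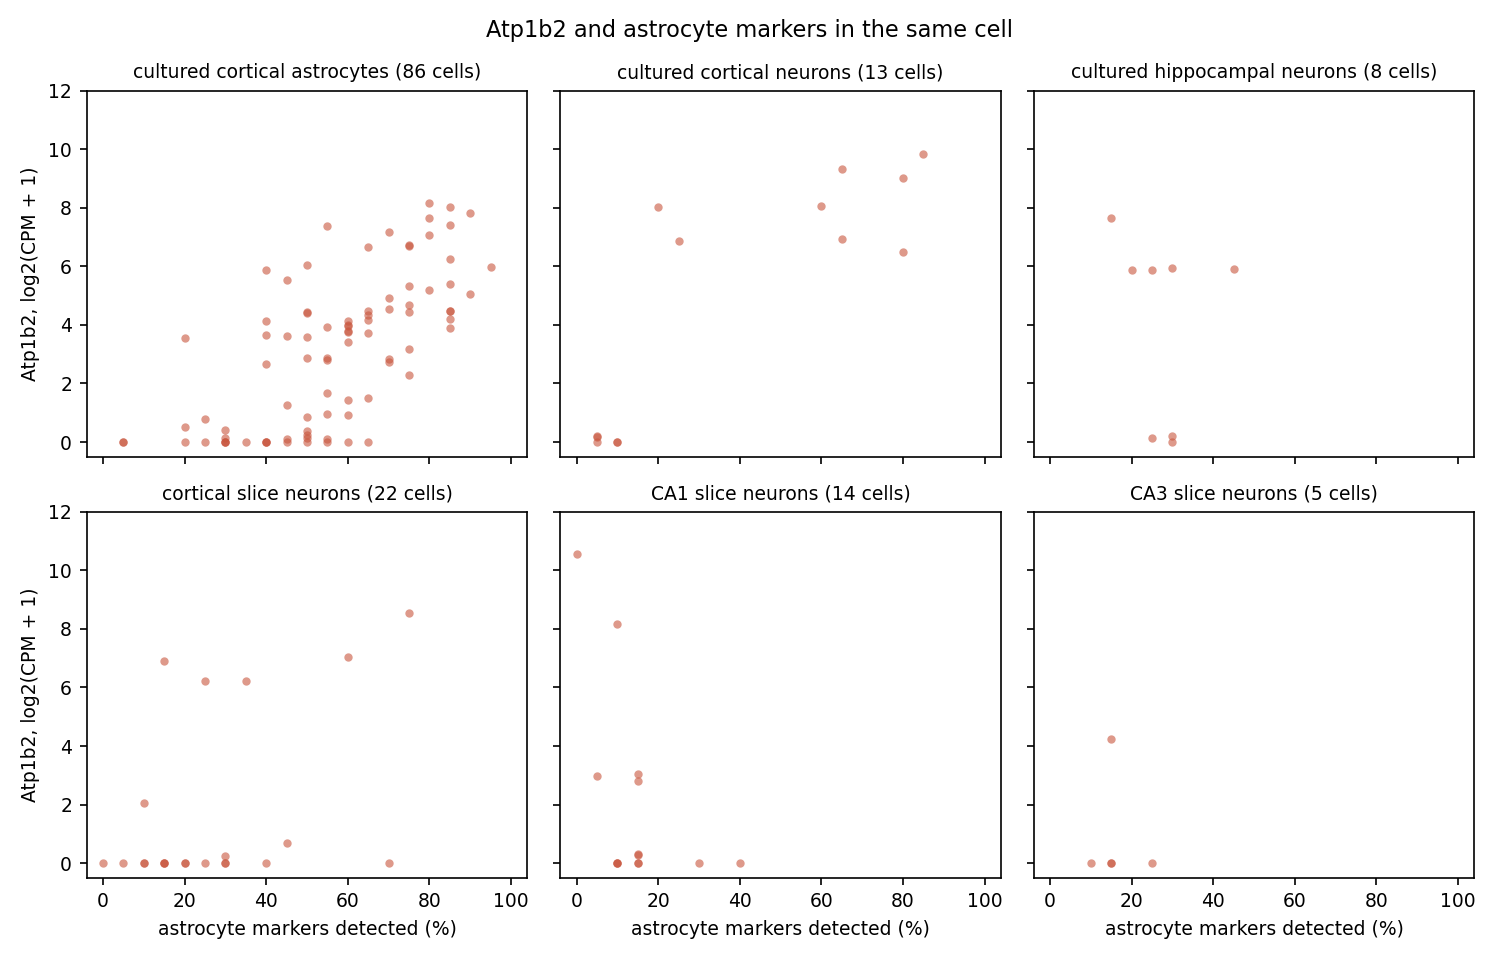
Atp1b2 level, as log2(CPM + 1), against the percentage of 20 astrocyte markers detected in the same cell. Each point is 1 cell with at least 1000000 counts, and each panel is a group. High Atp1b2 lies to the right in astrocytes and cultured cortical neurons, but hippocampal neurons with the gene have 15% to 45% of the markers and the highest CA1 neuron has 0%.

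Atp1b3 in neurons was carried by cells of mixed kinds. The cortical slice neuron highest in it, at 2773 CPM, had 70% of astrocyte and 40% of neuron markers and 1968 CPM of Aqp4. The next, at 2313 CPM, had 25% and 65%, and 75% of microglia markers. Another, at 1069 CPM, had 10% of astrocyte, 40% of neuron and 0% of microglia markers. The CA1 neuron at 6691 CPM had 30%, 55% and 50%, and the CA3 neuron at 2833 CPM 15%, 45% and 25%. These 5 cells thus ranged widely in their glial markers, and all had some astrocyte markers detected.

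By culture age, cultured cortical neurons without Atp1b2 were the younger ones. At 6 days the 3 cells had 0, 0.119 and 0.152 CPM, and at 10 days 0, 0 and 260.8. At 13 days the 4 cells had 114.7, 263.1, 631.5 and 903.0 CPM, and at 15 days 87.9, 122.3 and 513.4. All 7 older cells had the gene, against 1 of the 6 younger. The percentage of astrocyte markers was 5% to 20% in the younger and 25% to 80% or 85% in the older cells, so age and astrocyte transcripts cannot be told apart. Summed Atp1b2 was 0.104 CPM at 6 days, 177.9 at 10, 460.9 at 13 and 199.3 at 15. The 6- and 15-day cells shared basecalling version v1.8.4, and the 10- and 13-day cells v2.17.

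Atp1b1 in these neurons was summed to 136.7 CPM at 6 days, 221.6 at 10, 1472 at 13 and 1583 at 15, with overlapping cells. Atp1b3 had its highest cells, 4213 and 979.4 CPM, at 6 days, where the other cell had 0. It was at most 11.8 CPM at 10 days, 11.6 to 118.4 at 13 days and 0.282 to 593.3 at 15 days. In astrocytes, the 5 cells of 14 days had a summed Atp1b2 of 136.3 CPM (0.299 to 286.7), above 31.7 at 12 days (0 to 222.5), 12.9 at 15 days (0.0939 to 21.3) and 11.3 at 7 days (0.0650 to 24.7). Astrocyte Atp1b3 was 829.4 CPM at 12 days, 728.8 at 14, 605.8 at 15 and 143.2 at 7 days, where 1 of 3 cells still reached 1383 CPM.

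**Figure D4:**
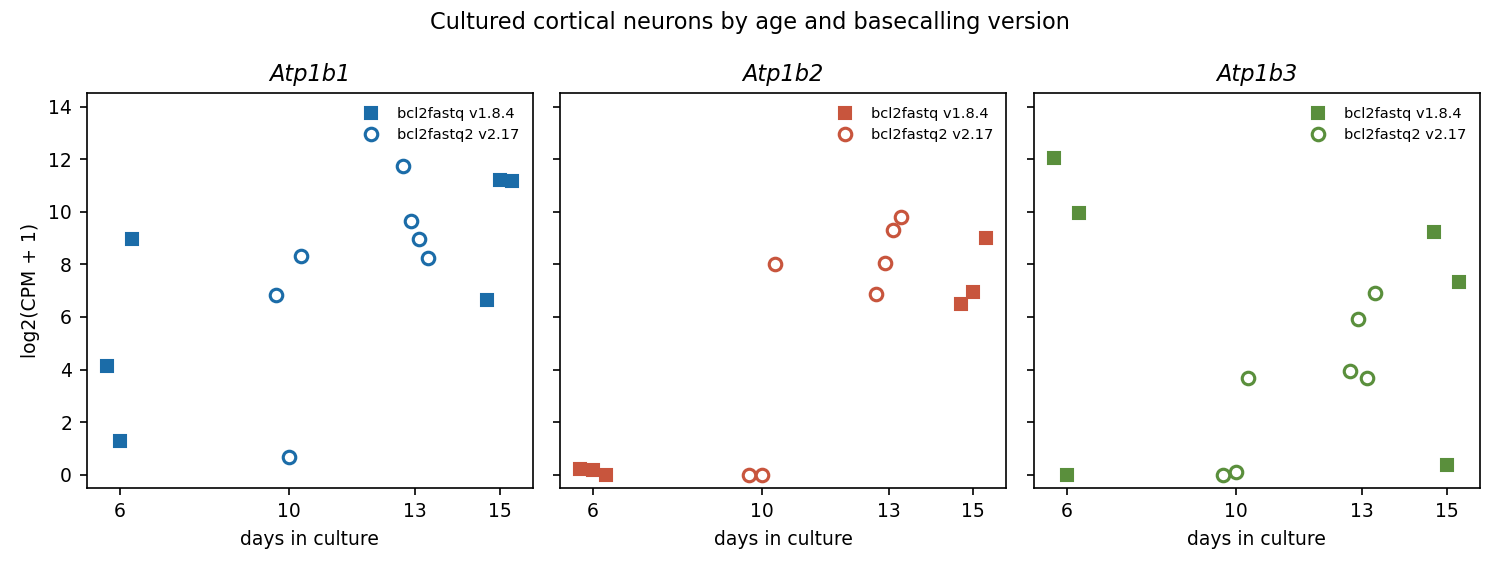
Level of the 3 genes, as log2(CPM + 1), in the 13 cultured cortical neurons against days in culture. Each point is 1 cell, filled squares were basecalled with bcl2fastq v1.8.4 and open circles with bcl2fastq2 v2.17. Atp1b2 is at or near 0 in all 3 cells of 6 days and above 87 CPM in all 7 cells of 13 and 15 days, while Atp1b3 is highest in 2 cells of 6 days.

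Titles of cortical slice neurons begin with F (5 cells) or P (16 cells), apart from RS10, which is in neither set. The labels do not say what the letters mean. The F cells had 482.9, 1102, 8509, 9126 and 25209 CPM of Atp1b1 and at most 11.6 CPM of Atp1b3. The P cells had 0 to 6063 CPM of Atp1b1 (summed 1791), and their Atp1b3 reached 2773 CPM with a summed level of 580.5 against 1.82 in the F cells. Gad1 stood at 18.9, 1092, 2357, 5143 and 8713 CPM in the F cells and at most at 605.2 CPM in the P cells.

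The gene most like Atp1b1 across all 149 cells was Nme7, by Spearman correlation of CPM among 11099 genes with at least 10 CPM in some group (rho 0.61). Nme7 lies on the plus strand and overlaps the 3' end of Atp1b1, and 575 exonic bases, between chr1:164437109-164437725, belong to both. The strand setting of the counting is not given in the sources used here, so reads from these bases cannot be assigned with certainty. Nme7 counts were 9.35% of those of Atp1b1 in astrocytes and 0.402% to 2.56% in the neuron groups. The likeness was present within groups, with rho from 0.52 in astrocytes to 0.73 in cultured cortical neurons. After Nme7 came Cx3cl1, Cadps, Glrb and Slc22a17 (0.59 to 0.58), of which Cadps primes secretory vesicles and Glrb is the beta subunit of the glycine receptor.

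For Atp1b2 the closest genes were Psap, a lysosomal precursor protein, Pla2g7, Psat1, Cadm4 and Hrsp12 (rho 0.56 to 0.53), and Pla2g7 is one of the astrocyte markers used above. For Atp1b3 they were Acadl, of fatty acid oxidation, Tmem120a, H2afv, Me1, the cytosolic malic enzyme, and Dap (0.57 to 0.55). None of the 3 lists shared a gene. These correlations pool the 6 groups and all cell depths.

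Of the 12 other beta, Fxyd and Nkain genes in the table, which encode a further protein of the beta family, small regulators of the pump and proteins that bind its beta subunit, 5 reached 50 CPM in a group. Fxyd6 was the highest, at 1485 CPM in cultured cortical neurons, 329.3 in cortical slice neurons, 221.7 in astrocytes and 0 in CA3. Fxyd7, known as a regulator in neurons, was at 57.6 CPM in hippocampal cultures and 22.8 in CA3, with 0.00 in astrocytes. Several of these levels came from 1 cell. Nkain2 was at 157.8 CPM in CA1, where 1 cell held 99.9% of the counts (0.11 CPM without it), and at 113.8 in cortical slice neurons (33.1 without the highest cell). Nkain1 was at 62.3 CPM in cultured cortical neurons (55.1 without the highest cell) and 65.6 in CA1 (3.08). Nkain3 was at 148.1 CPM in CA3 (34.6 without the highest cell) and at most 1.75 elsewhere. The same exclusion gave 883.0 CPM for Fxyd6 in cultured cortical neurons and 3.796 for Fxyd7 in CA3. Between astrocytes and cultured cortical neurons 10 of the 12 were measured, of which 1 was at least 2-fold higher in astrocytes and 3 lower. Over all genes 29.8% were higher and 19.9% lower. The median log2 ratio was 0.00 against 0.08 over all genes.

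A list of 14 transporters was measured in full in that comparison. They run on the sodium gradient, except Slc12a5, which moves chloride with potassium. Of the 14, 3 were at least 2-fold higher in astrocytes and 9 lower (median -1.56 against 0.08 over all genes, of which 29.8% were higher and 19.9% lower). Against hippocampal cultures 3 were higher and 10 lower (median -2.45 against 0.04, with 27.8% and 22.4% of all genes). Those higher in astrocytes than in cultured cortical neurons by these sums included Slc1a3, at 1098 against 127.4 CPM, and the bicarbonate cotransporter Slc4a4, at 507.5 against 99.2. Without the highest neuron, the Slc4a4 level of the cultured neurons was 37.6 CPM. Slc1a2, which like these 2 is among the astrocyte markers used here, went the other way, at 211.2 CPM in astrocytes against 554.5. The sodium-calcium exchanger Slc8a1 was summed to 694.3 CPM in cortical slice neurons, of which 1 cell held 63.5%. Without it the level was 256.7, beside 281.4 CPM in hippocampal cultures and 307.1 in CA3 with all cells. The potassium-dependent exchanger Slc24a2 was highest in CA3, at 1175 CPM (939.3 without the highest cell).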

How the data were processed

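Single mouse brain cells were collected by patch pipette, and polyA RNA libraries were made with the TruSeq Stranded kit, per the labels' protocols. The authors amplified the RNA in 3 rounds, per the series description, and deposited the counts per gene as raw whole numbers, without scaling. Per the submitters' processing notes, bases were called with bcl2fastq 1.8.4 (22 libraries) or bcl2fastq2 2.17 (136), reads were aligned with STAR to mm10 (GRCm38), and genes were counted with HTSeq. The annotation, the strand setting and the versions of STAR and HTSeq were not given in the sources used here. PolyA priming and repeated amplification can favour the 3' ends of transcripts and can add to the spread between cells.

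Libraries were grouped by their labels. In 9 cells the counts of 2 libraries were summed, of which 1 pair was recognised from its counts and not from its titles. All columns of samples in the table were used. Summed counts were divided by the group's total (CPM), with exact Poisson 95% intervals, and shares of cells have Clopper-Pearson 95% intervals. Cells were thinned without replacement (seed 7). A gene was measured in a comparison if the groups held 10 or more of its counts between them, in 3 or more cells, and called at 2-fold. The 3 genes, 6 comparisons and gene lists were chosen with earlier results of these data known. The 3 members are always named, other pump genes and transporters at 50 CPM or more serve as examples, and the 5 genes most like each member by Spearman correlation are named, predicted genes passed over. Alpha subunit genes are not reported here.

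Python 3.11.15, numpy 2.4.6, pandas 2.3.3 and scipy 1.17.1 were used, with edgeR 4.0.16 and DESeq2 1.42.0 in R 4.3.3 only for alternative scaling factors. The calculation of ratios was tested on simulated data. Alternatives were other weights of cells, scalings, pseudocounts, count filters and detection rules, and the exclusion of cells, versions or ages.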

Additional observations from a re-analysis of the deposited data

Results flagged for a closer look

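Of the 6 sets of cells that were small enough to check (the 3 genes in 8 hippocampal and 5 CA3 neurons), 3 had a cell far from the others in CPM, by a limit on the gap between the outermost cell and the next. For normally distributed values chance gives about 1 in 20, but CPM of single cells are skewed and often 0, so that rate does not hold here and the 3 are a description of cells. In hippocampal cultures 1 neuron had 198.4 CPM of Atp1b2 and the next 60.9. In CA3, 1 neuron had 17.9 CPM of Atp1b2 while the other 4 had 0, and a different one had 2833 CPM of Atp1b3 while the next had 20.3.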

How the results depend on the processing

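The 18 log2 ratios (3 genes in 6 comparisons) were recomputed under each alternative. Of the resulting values 39 lay on the other side of the 2-fold threshold and 27 had the other direction. Moves were also held against the standard deviation between cells, a wide measure of 2.54 to 4.89, which 6 values exceeded. In 5 of the 18, direction and side of the 2-fold threshold were kept under every alternative run: Atp1b1 in astrocytes against hippocampal cultures, in slice against cultured cortical neurons and in hippocampal against cortical cultures (1.53 to 3.66), and Atp1b2 in astrocytes against cultured cortical neurons (-3.85 to -2.39) and in slice against cultured cortical neurons (-6.85 to -2.12). No alternative split the cortical slice neurons by title letter, although summed Atp1b1 was 11927 CPM in the F cells and 1791 CPM in the P cells. A called ratio turned its direction once: Atp1b3 in astrocytes against hippocampal cultures was -1.14 among cells labelled C57/BL6, an alternative chosen after seeing the data. That ratio is of summed counts, and the means of the same cells, 500.2 and 275.2 CPM, kept the direction. With the median of the cells' CPM, Atp1b3 in astrocytes against cultured cortical neurons moved to 5.30, Atp1b2 in slice against cultured cortical neurons to -6.85, Atp1b3 in hippocampal against cortical cultures to 4.13, and Atp1b2 in CA3 against CA1 to 0, since both medians are 0. Leaving out each CA3 neuron in turn gave -0.90 to 0.35 for Atp1b1, -6.69 to -4.09 for Atp1b2 and -6.96 to 0.65 for Atp1b3 against CA1. Leaving out the cell highest in the gene in each group, also chosen after seeing the data, moved Atp1b3 in CA3 against CA1 to -5.27. The cause of these changes was not tested beyond the cells left out. Keeping libraries apart cannot change sums, so that alternative was run on means of cells. No paired analysis was possible because the replicate numbers are in accession order and no test between groups was made. Detection depended on the rule: Atp1b2, detected in 61.6% of astrocytes, was at 72.1% from 1 count upwards and at 50% with 5 counts at a depth of 500000.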
